A study of Homo sapiens with 4 samples.

Results

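The EGF receptor family was examined through 10 genes, chosen by name: the receptor genes EGFR, ERBB2 and ERBB3, the ligand genes AREG, EREG, HBEGF, TGFA, BTC and NRG1, and ERRFI1, which encodes an inhibitor of the receptors. All 10 were among the 20329 genes of the deposited table, and 9 of them passed the filter for testing, a mean of at least 1 FPKM (a fragment count scaled to gene length and library size). BTC did not. The RNA came from BM1 (1833) and LM2 (4175) cells, cells of the human triple-negative breast cancer line MDA-MB-231 that derive from its metastases to bone (BM1) and lung (LM2), per the labels. Each line was grown in DMEM with fetal bovine serum and stably expressed a lentiviral shRNA, either a non-specific shRNA (control) or an shRNA against hnRNPM (knockdown), a nuclear RNA-binding protein that acts in splicing. There was 1 polyA library for each of the 4 combinations, so a change within a line compares 2 libraries and has no replicate check. The labels do not state how many shRNAs or infected populations stand behind a library. Pairs of values are given control first, and changes are knockdown minus control.

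The receptors are tyrosine kinases at the cell surface that pair up when a ligand binds. AREG, EREG, HBEGF, TGFA and BTC encode membrane-anchored precursors whose shed form binds EGFR, and HBEGF, EREG and BTC also bind ERBB4. NRG1 encodes neuregulin, which binds ERBB3 and ERBB4, and ERBB2 has no ligand of its own and serves as a partner of the others. Activated receptors signal through adaptors to RAS and the kinases RAF, MEK and ERK, which in turn switch on genes that dampen the pathway.

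The libraries held an estimated 22817174 to 41569867 fragments, a range read from the step structure of low FPKM values with the larger of 2 possible steps taken as 1 fragment. If the smaller step is 1 fragment, these and all fragment numbers given for single genes are 2 times as high. Mitochondrial genes took 8.80% and 9.31% of the FPKM sum in the controls and 11.8% and 12.8% in the knockdowns. HNRNPM, the targeted gene, went from 171 to 28.4 FPKM in the BM1 pair and from 132 to 20.3 FPKM in the LM2 pair (-2.59 ± 0.25, limma, adjusted p 0.00318). Of the markers fixed for MDA-MB-231 cells, VIM, CD44, AXL and CAV1 were all at 148 FPKM or more in every library. Of the receptors that define triple-negative tumours, ERBB2 is described with the receptors, and ESR1 and PGR were not analysed here. The 5 measured luminal epithelial markers, mainly KRT8 and KRT18, summed to 563 and 621 FPKM in the BM1 and LM2 controls and to 1440 and 1410 FPKM in the knockdowns. Of the low members of that list, CDH1 measured 0.489 and 4.08 FPKM in the BM1 pair and 0.170 and 2.30 FPKM in the LM2 pair, EPCAM stayed between 2.999 and 4.59 FPKM, and GATA3 was lower in both knockdowns (2.501 and 2.96 FPKM) than in their controls (2.84 and 3.33 FPKM). The 3 measured fibroblast markers, mainly COL1A1, summed to 3.35 and 30.0 FPKM in the controls and to 14.5 and 77.7 FPKM in the knockdowns. The endothelial marker VWF was at or below 0.163 FPKM in every library, and the leukocyte marker CD14 was between 1.47 and 7.09 FPKM. The mitochondrial share and the epithelial and fibroblast sums were higher in the knockdown library of each line, and their part in the results was not tested. These are bulk cultures, in which fewer expressing cells and less RNA per cell cannot be told apart.

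AREG and EREG, neighbouring ligand genes on chromosome 4, were the members that passed the test for the knockdown, both as higher. Their promoters are shown here for that reason, as the 250 bases before the transcription start from RefSeq on GRCh38.p14, 5′ to 3′ on the plus strand. Capitals mark matches to TGACG, the core of the cyclic AMP response element (CRE), to the full CRE TGACGTCA and to the TATA box TATAAA.
AREG, chr4:74444886-74445135: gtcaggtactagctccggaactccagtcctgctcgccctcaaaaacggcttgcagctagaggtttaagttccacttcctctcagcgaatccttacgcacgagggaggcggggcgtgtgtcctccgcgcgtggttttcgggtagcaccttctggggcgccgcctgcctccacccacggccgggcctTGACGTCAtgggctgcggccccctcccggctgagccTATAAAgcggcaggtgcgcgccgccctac
EREG, chr4:74364895-74365144: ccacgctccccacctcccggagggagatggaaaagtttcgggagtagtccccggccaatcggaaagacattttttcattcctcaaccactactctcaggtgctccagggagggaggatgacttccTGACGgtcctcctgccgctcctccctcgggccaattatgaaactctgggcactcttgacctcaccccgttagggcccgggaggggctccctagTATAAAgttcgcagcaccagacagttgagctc
Both promoters held a TATA box, its first base 29 bases before the start in AREG and 32 bases before it in EREG. AREG held a full CRE that began 65 bases before the start, within which TGACG reads on each strand, and EREG held TGACG on the plus strand, beginning 125 bases before the start. Over all 35116 RefSeq promoter entries, 10.7% of windows of this length held TATAAA, 1.65% held TGACGTCA and 21.2% held TGACG on either strand. The window of AREG had a GC content of 65.2% and that of EREG 58.0%. The AP-1 motif TGANTCA, present in 6.57% of entries, was not among the letters of either window. The GC box GGGCGG, present in 42.6%, matched once in AREG, on the minus strand. Of the 10 members, 8 had a promoter entry. TATAAA also matched in 1 of the entries for EGFR, and TGACG in 1 of those for TGFA. The AP-1 motif matched in EGFR and ERBB2, and the GC box in EGFR, HBEGF, TGFA and ERRFI1. A match describes these letters and is not a measured binding site.

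AREG, which encodes amphiregulin (ENSG00000109321.10, chromosome 4, 75310851 to 75320726 on GRCh37, plus strand), was at 4.57 FPKM in the BM1 control and 14.9 FPKM in the BM1 knockdown. In LM2 it was at 3.47 FPKM in the control and 13.7 FPKM in the knockdown. Both knockdown libraries were thus above both controls, and the lines stood close to each other at each treatment. The ratio of FPKM was 3.25 in BM1 and 3.95 in LM2. On the log2(FPKM + 1) scale used for all tests, which understates the change of low genes, the rise over both lines was 1.61 ± 0.25 (standard error, limma, 95% interval 1.04 to 2.19, adjusted p 0.0147). The standard errors and p-values rest on how far the lines' changes differ and on all genes together, not on replicates. AREG ranked 139 from the highest change among the 13928 genes tested. With 956 or 1240 bases in its annotated coding transcripts, the lowest of these values stands for an estimated 138 to 179 fragments in the LM2 control.

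The AREG values carry a limit of the genome build. GRCh37 holds AREGB, an annotated near-identical copy of AREG (chromosome 4, 75480629 to 75490486), and reads can be shared between the copies. AREGB measured 3.73 and 12.3 FPKM in the BM1 pair and 2.81 and 11.3 FPKM in the LM2 pair. The ratio of AREGB to AREG stayed between 0.811 and 0.829 in the 4 libraries. With both rows summed, AREG was at 8.31, 27.2, 6.28 and 25.0 FPKM in the same order, and the change was 1.72 (limma, adjusted p 0.0123).

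EREG, which encodes epiregulin (ENSG00000124882.3, chromosome 4, 75230860 to 75254468, plus strand), was at 1.24 FPKM in the BM1 control and 12.1 FPKM in the BM1 knockdown. In LM2 it was at 15.8 FPKM in the control and 35.3 FPKM in the knockdown. The knockdown library was the higher in each line, but the BM1 knockdown stayed below the LM2 control. The ratio of FPKM was 9.74 in BM1 and 2.23 in LM2, and whether the lines differ in this could not be tested with 1 library per combination. The rise over both lines was 1.83 ± 0.35 (limma, 95% interval 1.03 to 2.62, adjusted p 0.0254), the largest of the 9 tested members. Given the 4619 bases of its 1 annotated coding transcript, the BM1 control value stands for an estimated 179 fragments. EREG varied most of the tested members, by 28.5 times between its lowest and highest library. The fibroblast marker COL1A1 put the 4 libraries in the same order as EREG, at 1.94 and 11.1 FPKM in the BM1 pair and 29.2 and 74.2 FPKM in the LM2 pair. COL3A1 stayed at or below 0.525 FPKM, and PDGFRB was lower in the LM2 control (0.699 FPKM) than in the BM1 control (1.37 FPKM), so neither had the order of EREG. Their part in the EREG result was not tested.

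The size of the EREG change differed with the library left out. In fits without the pairing by line, the EREG change was 0.37 without the BM1 control, 1.09 without the LM2 knockdown, 2.56 without the BM1 knockdown and 3.28 without the LM2 control, while that of AREG stayed between 1.45 and 1.77. Neither gene was called in these fits, nor with a pseudocount of 0.1, without the filter, with quantile normalization or without the pairing, where adjusted p-values by limma ran from 0.0724 to 0.265 for AREG and from 0.0941 to 0.533 for EREG.

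EREG, AREG, AREGB and BTC lie in this order along chromosome 4, and the table lists no other gene between them. The nearest listed genes on either side, picked after the members' values were seen, were MTHFD2L and PARM1. MTHFD2L measured 2.93 and 2.90 FPKM in the BM1 pair and 4.30 and 3.23 FPKM in the LM2 pair, control first. PARM1 measured 1.18 and 0.542 FPKM in the BM1 pair and 1.01 and 0.132 FPKM in the LM2 pair. Neither flank was higher in a knockdown library than in its control.

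**Figure D1:**
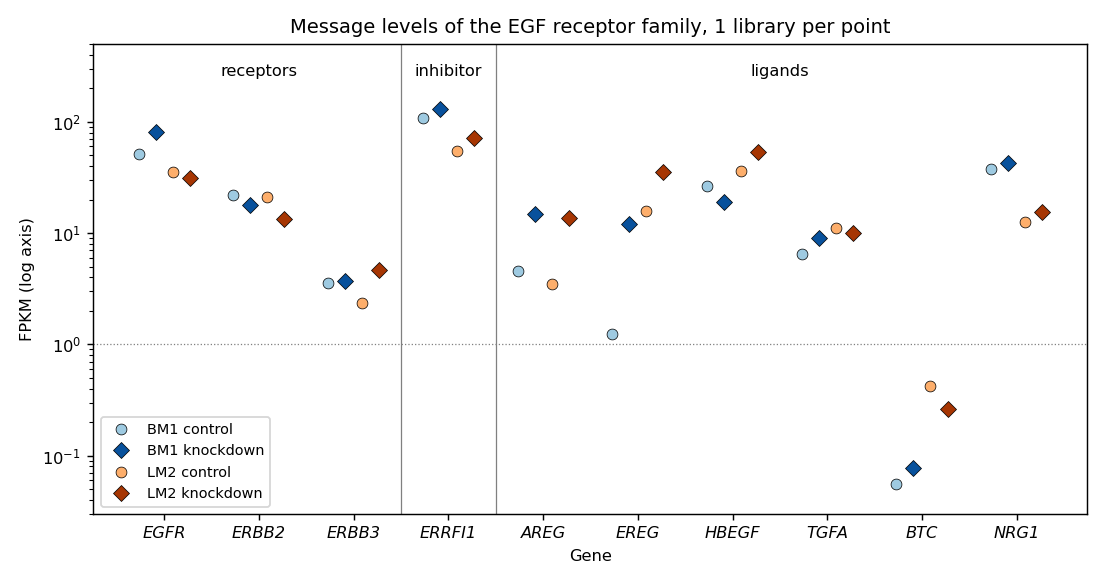
FPKM on a log axis for each of the 10 genes, with 1 point per library (circles, controls; diamonds, knockdowns; blue, BM1; orange, LM2), and the dotted line at 1 FPKM. The knockdown point is above the control point of the same line for AREG, EREG, ERBB3, NRG1 and ERRFI1. Both LM2 points lie on the same side of both BM1 points for EGFR, ERRFI1, EREG, HBEGF, TGFA, BTC and NRG1. These orders were not tested, and their share over all genes was not counted. BTC lies below 1 FPKM in every library.

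The other ligands did not pass the test for the knockdown. HBEGF (chromosome 5, 139712428 to 139726216), which encodes the heparin-binding EGF-like growth factor, measured 26.5 and 18.9 FPKM in the BM1 pair and 35.9 and 53.5 FPKM in the LM2 pair. It was lower in the knockdown in BM1 and higher in LM2, and the average change was 0.05 ± 0.31 (limma, 95% interval -0.65 to 0.74, adjusted p 0.943). TGFA (chromosome 2, 70674412 to 70781325), which encodes transforming growth factor alpha, measured 6.52 and 9.06 FPKM in the BM1 pair and 11.1 and 10.1 FPKM in the LM2 pair (0.15 ± 0.27, 95% interval -0.46 to 0.76, adjusted p 0.768). NRG1 measured 37.5 and 42.2 FPKM in the BM1 pair and 12.5 and 15.4 FPKM in the LM2 pair (0.22 ± 0.25, 95% interval -0.35 to 0.79, adjusted p 0.627). These intervals include changes of up to 0.79 in size on the log2 scale, so they do not show that the genes stayed level. BTC (chromosome 4, 75669969 to 75719896), which encodes betacellulin, measured 0.0550 and 0.0779 FPKM in the BM1 pair and 0.422 and 0.260 FPKM in the LM2 pair. At the longest annotated coding transcript these are an estimated 4.85, 5.01, 49.4 and 20.0 fragments, too few in BM1 to rank the treatments.

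The receptor genes did not pass the test either. EGFR (chromosome 7, 55086714 to 55324313) measured 51.0 and 80.6 FPKM in the BM1 pair and 35.4 and 31.4 FPKM in the LM2 pair. The BM1 knockdown library stood highest and the LM2 knockdown library lowest, and the average change was 0.24 ± 0.29 (limma, adjusted p 0.642). ERBB2 (chromosome 17, 37844167 to 37886679) measured 21.9 and 17.8 FPKM in the BM1 pair and 21.3 and 13.5 FPKM in the LM2 pair. Both knockdown libraries were below both controls, the reverse of the AREG pattern and smaller in size, at -0.45 ± 0.26 (adjusted p 0.315). ERBB3 (chromosome 12, 56473641 to 56497289), which encodes a receptor with little kinase activity of its own, was the lowest receptor in every library, at 3.55 and 3.69 FPKM in the BM1 pair and 2.36 and 4.70 FPKM in the LM2 pair (0.40 ± 0.28, adjusted p 0.406). EGFR overlaps EGFR-AS1, and ERBB2 overlaps PGAP3 and MIEN1, on the opposite strand. The libraries were stranded per the labels, but the sources used here do not say whether counting used the strand.

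ERRFI1 (chromosome 1, 8064464 to 8086368) encodes MIG6, which binds activated receptors and blocks their kinase. With 108 and 130 FPKM in BM1 and 55.0 and 72.1 FPKM in LM2, it was the most abundant of the 10 messages in every library. Each knockdown library exceeded the control of its line, by ratios of 1.21 and 1.31, but the change of 0.33 ± 0.25 was not past the threshold (limma, adjusted p 0.456).

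Counted together, 2 of the 9 tested members passed the threshold of an adjusted p of 0.05 in the knockdown contrast, both higher, where 5.47% of all genes tested passed in either direction and 2.71% passed as higher. The median change of the 9 was 0.24, against -0.01 over all genes tested. Within BM1, AREG and EREG were also the members past 2-fold (1 on the log2 scale), where 16.3% of all genes were past it and 10.1% were past it as higher. Within LM2 they were again the members past 2-fold, against 8.06% of all genes, or 3.83% as higher. The member set is small and was chosen with earlier results of these data known. These shares therefore describe it and support no statement on the family as a whole.

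**Figure D2:**
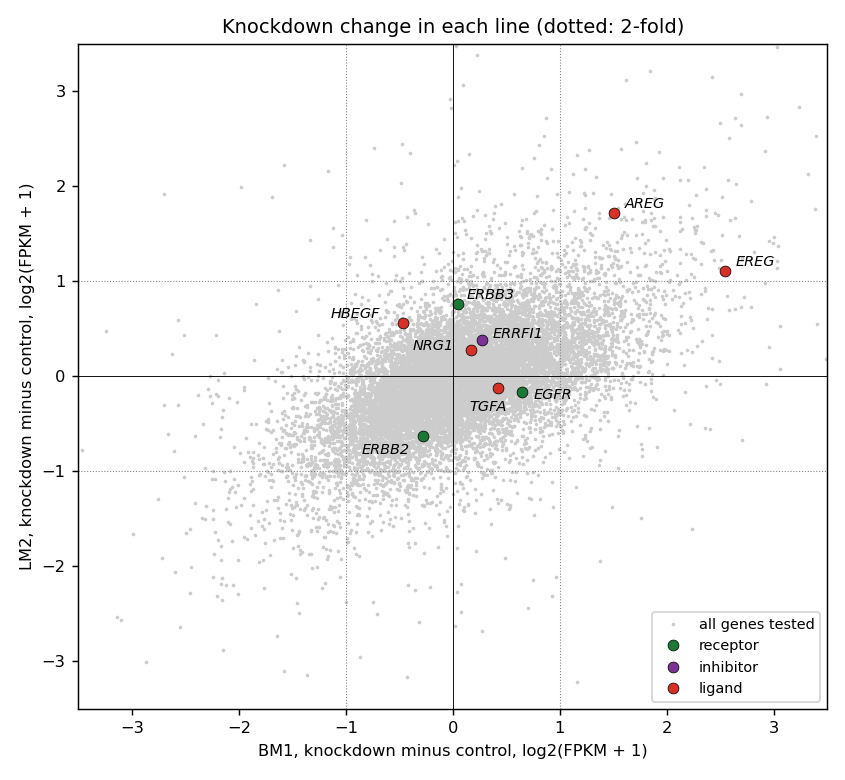
Knockdown minus control on the log2(FPKM + 1) scale in BM1 (x) and LM2 (y), for the 9 tested members (coloured by role) over all 13928 genes tested (grey), with dotted lines at 2-fold. AREG and EREG lie past 2-fold in both lines and the other 7 lie within it, while 23 grey genes lie beyond the axes and are not drawn.

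The ligand messages were then summed in each library, which FPKM allows because it is scaled to length. The sum over the 6 ligands was 76.4 FPKM in the BM1 control and 97.2 FPKM in the BM1 knockdown, a log2 ratio of 0.35. In LM2 it was 79.2 FPKM in the control and 128 FPKM in the knockdown, a log2 ratio of 0.69. The controls were close in total and far apart in makeup. NRG1 made up 49.1% of the sum in the BM1 control and 15.8% in the LM2 control, while EREG made up 1.62% and 20.0%. HBEGF made up 34.7% in the BM1 control and 45.3% in the LM2 control. In the knockdown libraries, AREG and EREG together went from 7.60% to 27.7% of the sum in BM1 and from 24.4% to 38.2% in LM2. The sums and shares count the AREG row alone. They leave out AREGB, at 3.73 and 12.3 FPKM in the BM1 pair and 2.81 and 11.3 FPKM in the LM2 pair. With AREGB counted, the share of AREG and EREG would be larger in each library. HBEGF was the main ligand message in both LM2 libraries and NRG1 in both BM1 libraries. Levels of message say nothing of how much ligand is shed.

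**Figure D3:**
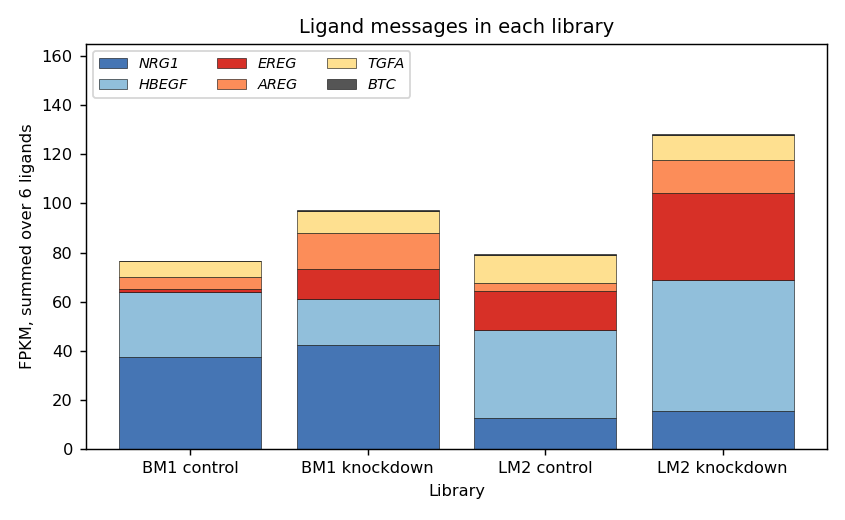
FPKM of the 6 ligand genes stacked for each library (bars start at 0). AREGB is not included. NRG1 is the widest band in the BM1 bars and HBEGF in the LM2 bars, and the EREG and AREG bands are wider in the knockdown bar of each line.

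Between the lines, EREG was higher and NRG1 lower in LM2. EREG differed by 2.91 on the log2 scale between controls and by 1.47 between knockdowns, with a mean of 2.19 ± 0.35 (limma, 95% interval 1.40 to 2.99, adjusted p 0.0120). EREG ranked 47 from the highest difference among the genes tested. NRG1 (ENSG00000157168.14, chromosome 8, 31496902 to 32622548) differed by -1.51 between controls and by -1.40 between knockdowns, with a mean of -1.45 ± 0.25 (95% interval -2.03 to -0.88, adjusted p 0.0167). The BM1 libraries held 37.5 and 42.2 FPKM of NRG1, against 12.5 and 15.4 FPKM in the LM2 libraries. Those 2 members passed of 9 tested, where 4.35% of all genes did. The calls ended with a pseudocount of 0.1, without the filter, with quantile normalization and in fits without the term for treatment. With single libraries left out, the EREG difference ran from 0.92 without the BM1 control to 3.46 without the BM1 knockdown, at 1.64 without the LM2 knockdown and 2.75 without the LM2 control, and that of NRG1 from -1.59 to -1.32.

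The remaining members did not pass. ERRFI1 was lower in LM2, with differences of -0.96 between controls and -0.85 between knockdowns (mean -0.90 ± 0.25, limma, adjusted p 0.0838), and its LM2 libraries were both below its BM1 libraries. EGFR was also lower in LM2, with differences of -0.52 and -1.33 (mean -0.92 ± 0.29, adjusted p 0.105). HBEGF was higher in LM2 by 0.42 and 1.46 (mean 0.94 ± 0.31, adjusted p 0.118). For EGFR and HBEGF the larger difference between lines was thus that between the knockdown libraries, and for EREG that between the controls. TGFA differed by 0.41, AREG by -0.21, ERBB2 by -0.21 and ERBB3 by -0.08 on average (adjusted p 0.406 to 0.901). Past 2-fold between controls were EREG (higher in LM2) and NRG1 (lower), where 12.2% of all genes were, 6.98% as higher and 5.26% as lower. Between knockdowns EGFR and HBEGF joined them, which makes 4 of 9, where 9.04% of all genes were past 2-fold, 4.41% as higher and 4.63% as lower.

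**Figure D4:**
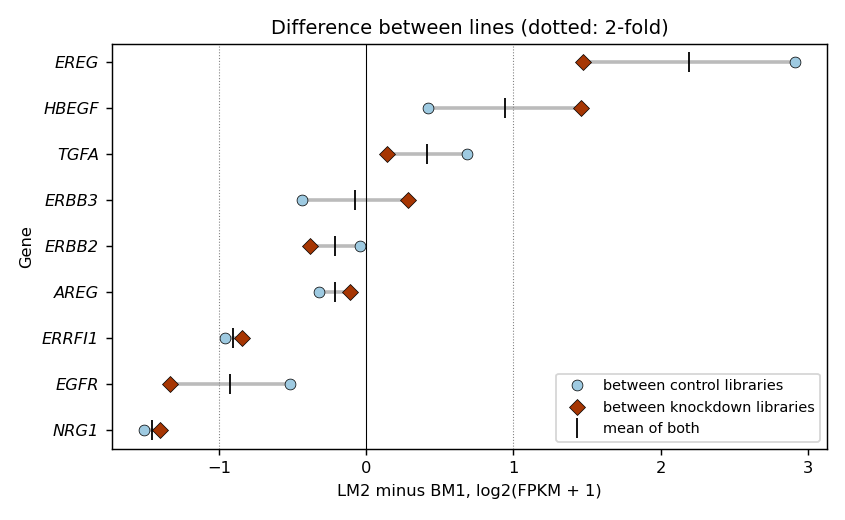
LM2 minus BM1 on the log2(FPKM + 1) scale for the 9 tested members, between control libraries (circles), between knockdown libraries (diamonds) and as their mean (ticks), with dotted lines at 2-fold. EREG lies past 2-fold to the right and NRG1 past 2-fold to the left in both comparisons, and EGFR and HBEGF do so between knockdowns.

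The order of the 10 messages within a library shows the same shifts. ERRFI1 came first and BTC last in each. EGFR was the second in both BM1 libraries, the third in the LM2 control and the fourth in the LM2 knockdown. EREG moved from rank 9 of 10 to rank 7 with the knockdown in BM1 and from rank 5 to rank 3 in LM2. The tested genes nearest to EREG in the pattern over the 4 libraries, by distance between log2 values centred on each gene's mean, were KRT7, RP3-416H24.1 and GPC1. KRT7, a keratin gene, measured 22.3 and 129 FPKM in the BM1 pair and 142 and 313 FPKM in the LM2 pair, control first, at a distance of 0.26. GPC1, which encodes the heparan sulfate proteoglycan glypican-1, measured 2.11 and 9.93 FPKM in the BM1 pair and 18.5 and 36.7 FPKM in the LM2 pair, at a distance of 0.53. RP3-416H24.1 was at a distance of 0.46. With 4 libraries such a likeness is a description of the values.

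Beyond the members, 51 other genes of the pathway were listed by role, of which 48 were in the table and 44 were tested. These lists were also chosen with earlier results of these data known, so counts within them are descriptions only. In the knockdown contrast 4 of these were called higher and 3 lower, where 2.71% and 2.76% of all genes were. In the line contrast none was called higher by limma and 2, DUSP6 and SPRY2, were called lower, where 2.31% and 2.04% of all genes were.

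Genes that act in ligand shedding included both kinds of direction. ADAM17, the main sheddase of AREG, EREG, HBEGF and TGFA, rose from 14.6 to 29.7 FPKM in the BM1 pair and from 9.36 to 24.5 FPKM in the LM2 pair (1.14 ± 0.26, limma, adjusted p 0.0413). ADAM9, another membrane metalloproteinase, rose from 29.9 to 122 FPKM in the BM1 pair and from 57.7 to 98.9 FPKM in the LM2 pair (1.38 ± 0.32, adjusted p 0.0465). ADAM10, which sheds BTC and EGF, measured 4.69 and 18.5 FPKM in the BM1 pair and 12.1 and 18.9 FPKM in the LM2 pair and did not pass (1.19 ± 0.32, adjusted p 0.0674). RHBDF2, which encodes iRhom2, a partner that ADAM17 needs to mature, measured 11.5 and 6.65 FPKM in the BM1 pair and 6.60 and 4.003 FPKM in the LM2 pair (-0.66 ± 0.25, adjusted p 0.153). Of the 5 tested genes of this list, 2 were called higher and none lower, where 2.71% of all genes were called higher and 2.76% lower. ADAM17 overlaps IAH1 on the opposite strand. With libraries left out, the ADAM9 change ran from 0.91 without the BM1 control to 1.84 without the LM2 control. That of ADAM17 ran from 0.84 without the LM2 control to 1.43 without the BM1 control. No gene of this list was called with a pseudocount of 0.5.

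Among the 8 brakes on the receptors, ERRFI1 included, 2 rose and none fell by this test, where 2.71% of all genes were called higher and 2.76% lower. CBLB, a ubiquitin ligase of the CBL family, rose from 1.75 to 7.21 FPKM in the BM1 pair and from 1.64 to 6.38 FPKM in the LM2 pair (1.53 ± 0.25, limma, adjusted p 0.0166). SOCS5, a suppressor of cytokine signalling that also acts on EGFR, rose from 6.61 to 19.5 FPKM in the BM1 pair and from 9.38 to 19.7 FPKM in the LM2 pair (1.21 ± 0.26, adjusted p 0.0362). LRIG1, whose product promotes receptor degradation, measured 4.87 and 2.27 FPKM in the BM1 pair and 9.53 and 4.16 FPKM in the LM2 pair (-0.94 ± 0.25, adjusted p 0.0678). PTPRK, a receptor phosphatase, measured 8.53 and 22.5 FPKM in the BM1 pair and 21.1 and 34.6 FPKM in the LM2 pair (0.996 ± 0.27, adjusted p 0.0690). The list thus held called genes in 1 direction and values in both. LRIG1 overlaps SLC25A26 on the opposite strand. SOCS5 was not called with a pseudocount of 0.5 (adjusted p 0.0503).

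Of the 16 adaptors and kinases from GRB2 to MAPK3, none was called in either contrast by limma. BRAF, which encodes a RAF kinase, measured 3.28 and 8.13 FPKM in the BM1 pair and 5.35 and 8.20 FPKM in the LM2 pair (0.81 ± 0.27, limma, adjusted p 0.112). SOS2, which encodes an exchange factor that activates RAS, measured 4.18 and 10.8 FPKM in the BM1 pair and 8.23 and 10.6 FPKM in the LM2 pair (0.76 ± 0.29, adjusted p 0.151). Between the lines GRB2 differed by -0.78 (adjusted p 0.169) and ARAF by 0.59 (adjusted p 0.214). GRB2 overlaps AC011933.1 on the same strand, and BRAF and ARAF overlap genes on the opposite strand.

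Genes known to respond to ERK were mostly lower in the knockdown libraries, with 14 of 16 at a negative average change. The share of all genes with a negative change was not counted. The median of the 16 was -0.69, against -0.01 over all genes tested. Of the 16, 3 were called lower and none higher, where 2.76% of all genes were called lower. By line, the median was -1.04 in BM1 and -0.41 in LM2, against 0.0047 and -0.038 over all genes tested. ETV4, an ETS transcription factor, fell from 42.9 to 15.6 FPKM in the BM1 pair and from 32.7 to 13.9 FPKM in the LM2 pair (-1.29 ± 0.25, limma, adjusted p 0.0274). DUSP6, a phosphatase that removes the activating phosphates of ERK, fell from 93.2 to 37.3 FPKM in the BM1 pair and from 25.7 to 12.7 FPKM in the LM2 pair (-1.13 ± 0.26, adjusted p 0.0423). DUSP4, a related phosphatase in the nucleus, fell from 128 to 64.7 FPKM in the BM1 pair and from 89.2 to 39.2 FPKM in the LM2 pair (-1.07 ± 0.25, adjusted p 0.0462). ETV5, a close relative of ETV4, measured 46.3 and 14.6 FPKM in the BM1 pair and 31.6 and 20.0 FPKM in the LM2 pair and did not pass (-1.12 ± 0.30, adjusted p 0.0658). In BM1, 8 of the 16 were at least 2-fold lower, where 6.20% of all genes were. In LM2, 2 of the 16 were, where 4.24% of all genes were. DUSP6 overlaps a listed gene on the opposite strand, which measured 40.8 and 24.5 FPKM in the BM1 pair and 15.8 and 6.72 FPKM in the LM2 pair. ETV4 overlaps DHX8 on the opposite strand and ETV5 overlaps DGKG on the same strand. Left-out libraries moved the DUSP6 change from -2.04 without the LM2 control and -1.87 without the BM1 knockdown to -0.39 without the LM2 knockdown and -0.22 without the BM1 control, and only ETV4 was called with a pseudocount of 0.5.

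Between the lines, DUSP6 was lower in LM2 (-1.65 ± 0.26, limma, adjusted p 0.0117) and so was SPRY2, which encodes a feedback inhibitor of RAS signalling. SPRY2 measured 39.1 and 44.3 FPKM in the BM1 pair and 15.6 and 15.2 FPKM in the LM2 pair (-1.38 ± 0.25, adjusted p 0.0219). NRG1 and ERRFI1 had the same order of lines, as described. Without the BM1 control the DUSP6 difference was -0.9999. Neither gene was called with libraries left out, with a pseudocount of 0.1 (adjusted p 0.0648 for DUSP6 and 0.0912 for SPRY2), with quantile normalization (0.0573 and 0.0747), without the filter or without the term for treatment.

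**Figure D5:**
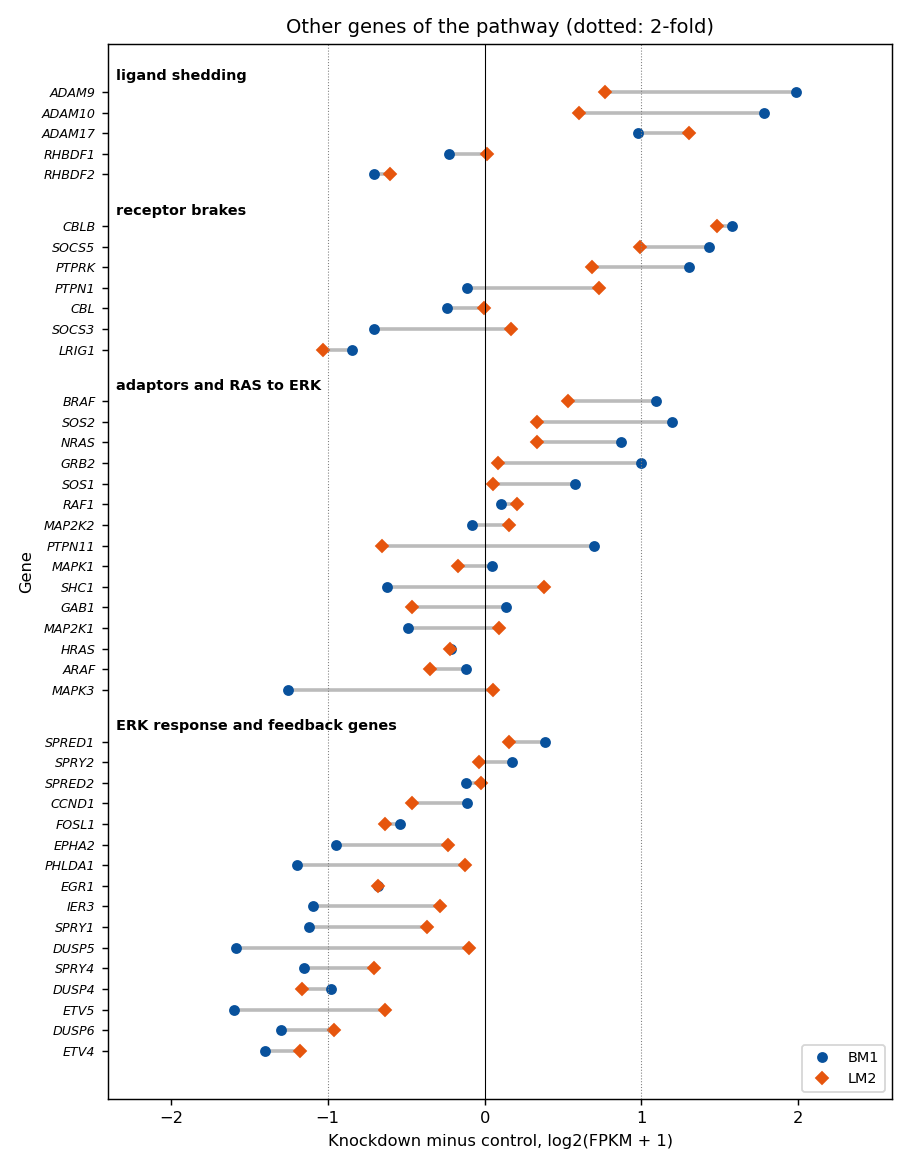
Knockdown minus control on the log2(FPKM + 1) scale in BM1 (blue circles) and LM2 (orange diamonds) for 43 of the 44 tested genes of the pathway that are not members, ordered by average change within each role, with dotted lines at 2-fold. Most ERK response genes lie to the left of 0 in both lines, ADAM9, ADAM10 and ADAM17 and the brakes CBLB, SOCS5 and PTPRK lie to the right, and the adaptors and kinases lie on both sides.

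Of the pathway genes below the filter, EGF measured 0.119 and 0.580 FPKM in the BM1 pair and 0.844 and 1.49 FPKM in the LM2 pair, control first, and NRG2 at 1.58 and 0.701 FPKM in the BM1 pair and 0.179 and 0.0885 FPKM in the LM2 pair. NRG4 and the protease gene ADAM12 stayed at or below 1.17 FPKM in every library. ERBB4, EPGN and NRG3 were not analysed here.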

How the data were processed

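RNA levels were analysed in 4 libraries, 1 per cell line and treatment. The authors deposited FPKM values with 1 column per library, and the submitters' processing notes name STAR 2.5.3a, Cuffdiff 2.2.1 and GRCh37. The annotation release was not given in the sources used here. Of 20369 rows, 40 that repeat 3 gene IDs were left out. Genes with a mean of at least 1 FPKM (13928) were tested on log2(FPKM + 1) with limma 3.58.1 (R 4.3.3) in 1 fit with terms for line and treatment, with 1 residual degree of freedom left for each gene. P-values are two-sided and Benjamini-Hochberg adjusted over all genes tested. The line pairs each knockdown with its control. Since nothing names separate cultures, the p-values measure the spread between these libraries only. With 1 library per combination, that spread is how far the knockdown changes of the lines differ, not a spread of replicates. Of 8.70 total degrees of freedom, 7.70 came from the spread over all genes, so the standard errors lie mostly near a shared value. The fit was tested on simulated data.

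Within a line or treatment a 2-fold rule was used, with no test. Depth was estimated from 1623 low genes with 1 annotated transcript in GENCODE 29. Among their products of FPKM and length that round to 1 to 10 steps, 35.9% to 43.8% lay within 0.02 of a whole number. Most of these products did not, so no count test was run. For other step sizes the median share within 0.02 was 2.50% to 3.24%. Promoters came from RefSeq (GRCh38.p14), matched by symbol, and no coordinates were converted. The members and lists were chosen with earlier results of these data known. The text names all members, HNRNPM, called genes and the 3 largest changes of each list, and the 3 genes nearest to EREG. Of these, 1 gene of the adaptor and kinase list is counted but not reported here. Alternatives were pseudocounts of 0.1 and 0.5, no filter, size factors, quantile normalization, no pairing, each library left out and a 1.5-fold rule. The sum of AREG and AREGB and the scaled ligand sum were chosen after seeing the data.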

Additional observations from a re-analysis of the deposited data

Results flagged for a closer look

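In 4 of the 10 members and in SPRY2, of the pathway genes named above that were tested, the knockdown libraries of BM1 and LM2 moved in opposite directions from their controls. With 1 library per combination the difference between the lines was not tested. The share of all genes that moved in opposite directions was not counted. EGFR changed by 0.65 in BM1 and by -0.17 in LM2 on the log2(FPKM + 1) scale. HBEGF changed by -0.47 in BM1 and by 0.56 in LM2. TGFA changed by 0.42 in BM1 and by -0.12 in LM2. BTC, below 1 FPKM throughout and with too few fragments in BM1 to rank the treatments, changed by 0.031 in BM1 and by -0.17 in LM2. The feedback gene SPRY2 changed by 0.18 in BM1 and by -0.038 in LM2. Of the pathway genes below the filter, NRG4 and ADAM12 were also higher in the knockdown in BM1 and lower in LM2.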

How the results depend on the processing

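Calls rested on the pairing by line, the filter and the scale. The 762 genes of the knockdown contrast became 27 with a pseudocount of 0.1 and 0 without the filter, with quantile normalization, with no pairing and in every fit that left out a library (0 to 0). At an unadjusted p under 0.05, limma gave 3735, 3255, 1548 and 860 to 1943 genes in the settings with 0 calls. The 2 called members, 2 shedding genes, 2 brakes and 3 ERK response genes were also 0 in each of these settings, including the pseudocount of 0.1 (0 to 0 with libraries left out). With a pseudocount of 0.5 they were 2, 0, 1 and 1. The 606 genes between lines became 216 (pseudocount 0.1), 0 (no filter), 104 (quantile), 11 (no pairing, that is without the term for treatment) and 6 to 28 with libraries left out, and the 2 members called became 0 in each (0 to 0). Size factors changed none of these calls of members or lists.

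Counts past 2-fold became, at 1.5-fold, 5262 in BM1, 3418 in LM2, 4738 between controls and 3865 between knockdowns. With a pseudocount of 0.1 they were 1824 in LM2, 2636 between controls and 2013 between knockdowns. At 1.5-fold the members counted were 4 in LM2 and 4 between controls, and the ERK response genes in LM2 were 7, or 4 with a pseudocount of 0.1. The log2 ratio of the ligand sum was 0.45 in BM1 and 0.77 in LM2 with AREGB added, and 0.31 and 0.74 with size factors.

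Single genes were followed in each contrast under each alternative setting, and every such value was counted. Of these values, 117 lost the call, 15 changed sign and 160 stayed the same. The last count includes genes that were not called in the main fit. All sign changes came from leaving out a library, which also drops the pairing, and each was in a contrast in which that gene was not called. The knockdown change ran in these fits from -0.42 to 0.91 for EGFR, from -0.68 to 0.77 for HBEGF, from -0.19 to 0.49 for TGFA, from -0.53 to 0.97 for NRG1 and from -0.15 to 0.81 for ERRFI1. The line difference ran from -0.52 to 0.10 for ERBB2, from -0.46 to 0.30 for ERBB3, from -1.07 to 0.64 for AREG and from -1.74 to 0.90 for HNRNPM. HNRNPM itself was at adjusted p 0.0550 with a pseudocount of 0.1 and 0.0596 with quantile normalization by limma. It was at 0.213 with no pairing and 0.220 without the filter. Its knockdown change stayed between -2.83 and -2.36. With 3 libraries left, the lone library of an arm is assumed to vary like the others.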
